A study of Mus musculus with 8 samples.

Results

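Interferon-stimulated genes are described here across 8 RNA-seq libraries of mouse CD8+ T cells. The 44 genes were taken from a list of symbols chosen with earlier results of these data known. All 44 were found among the 48321 gene symbols of each count table. Of these, 43 passed the filter on low counts and were among the 12597 genes tested. *Ifi44*, an interferon-induced protein of uncertain function, did not pass, with between 0 and 1.97 CPM (a count scaled to a common library size) in the 8 libraries. By role the 44 comprised 14 antiviral RNA-binding proteins and nucleases, 6 interferon-inducible GTPases, 3 proteins of the ISG15 system, 3 membrane or dynamin-like restriction factors, 4 transcription factors, 4 nucleic acid sensors, 3 proteins of the PARP family and 7 other induced proteins.

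The cells were peripheral CD8+ T cells, the cytotoxic lineage of T lymphocytes, sorted from spleens of C57BL/6 mice. The series describes them as *Satb1* F/F; *E8I-cre*, which is a floxed gene for a chromatin-organising DNA-binding protein together with a Cre recombinase driven by an enhancer of the CD8 locus that is active in mature CD8 lineage cells. The labels give a genotype of WT or KO and a time of day 0 or day 5, the latter after stimulation and culture in vitro, with 2 libraries in each of the 4 groups. They do not give the alleles that the WT cells carried, the number or age of the mice, or the culture conditions. Whether the libraries came from separate mice is likewise not stated, so the p-values measure the spread between these libraries, which may be technical.

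*Satb1* itself, the gene named by the genotype, measured 97.4 and 91.2 CPM in the libraries labelled WT and 144 and 124 CPM in those labelled KO at day 0, a log2 fold change of 0.51 ± 0.15, adjusted p = 0.12. After culture the values were 96.2 and 116 CPM in the libraries labelled WT and 56.4 and 62.1 CPM in those labelled KO, a log2 fold change of -0.84 ± 0.15, adjusted p = 0.016. The *Satb1* count thus went with the label KO at day 5 and against it at day 0, so KO is used below only as what the libraries are labelled. Gene counts per library ranged from 4170126 to 11117971, with the library labelled KO replicate 1 at day 0 the deepest, and a count of 3 corresponded to between 0.257 and 0.721 CPM. Markers of CD8 T cells were high (*Cd8a* between 732 and 1449 CPM), whereas *Cd4*, *Ms4a1*, *Cd14*, *Siglech* and *Ncr1* each stayed below 1 CPM. Some markers of other cell types were present: *Cd79b* of B cells lay between 66.5 and 163 CPM, *Csf1r* of macrophages between 3.52 and 11.7 CPM and *Zbtb46* of dendritic cells between 3.34 and 11.5 CPM.

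Interferons are secreted alarm signals. Type I interferons bind a receptor of the subunits IFNAR1 and IFNAR2 and act through the kinases JAK1 and TYK2 on a complex that holds STAT2 and IRF9 and binds interferon-stimulated response elements (ISRE) in DNA. Interferon gamma, a product of activated T cells and NK cells, uses IFNGR1 and IFNGR2 with JAK1 and JAK2 and acts through gamma-activated sites (GAS). The genes switched on by both routes encode proteins that sense, edit or degrade viral RNA, restrict viruses and other intracellular pathogens, or feed back on the signal, and T cells hold a tonic level of many of them without infection.

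The measured levels covered a wide range. Levels were compared as the mean CPM of a gene divided by its exon length in kilobases. *Igtp*, an interferon-inducible GTPase, was highest in all 4 groups. It stood at 518 CPM per kilobase in WT and 603 in KO at day 0 and 1594 and 1401 at day 5. *Ifi47*, a GTPase of the same family, came next at day 0 (466 and 437 CPM per kilobase), followed by *Ifi27l2a*, a small interferon-induced membrane protein (358 and 339). At the other end, *Oas2*, which makes the oligoadenylate messenger that switches on RNase L, stood at 1.71 and 2.93 CPM per kilobase at day 0 and at 0.257 and 0.147 at day 5. *Ifi44* was lowest of all, at or under 0.23 CPM per kilobase in every group. The order changed over the culture: *Gbp2*, a guanylate-binding protein that attacks pathogen vacuoles, moved from rank 5 to rank 2 in both labels, and *Ifit1*, which binds RNA whose cap lacks host methyl marks, moved from rank 10 to rank 24 in WT and from rank 11 to rank 28 in KO.

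**Figure D1:**
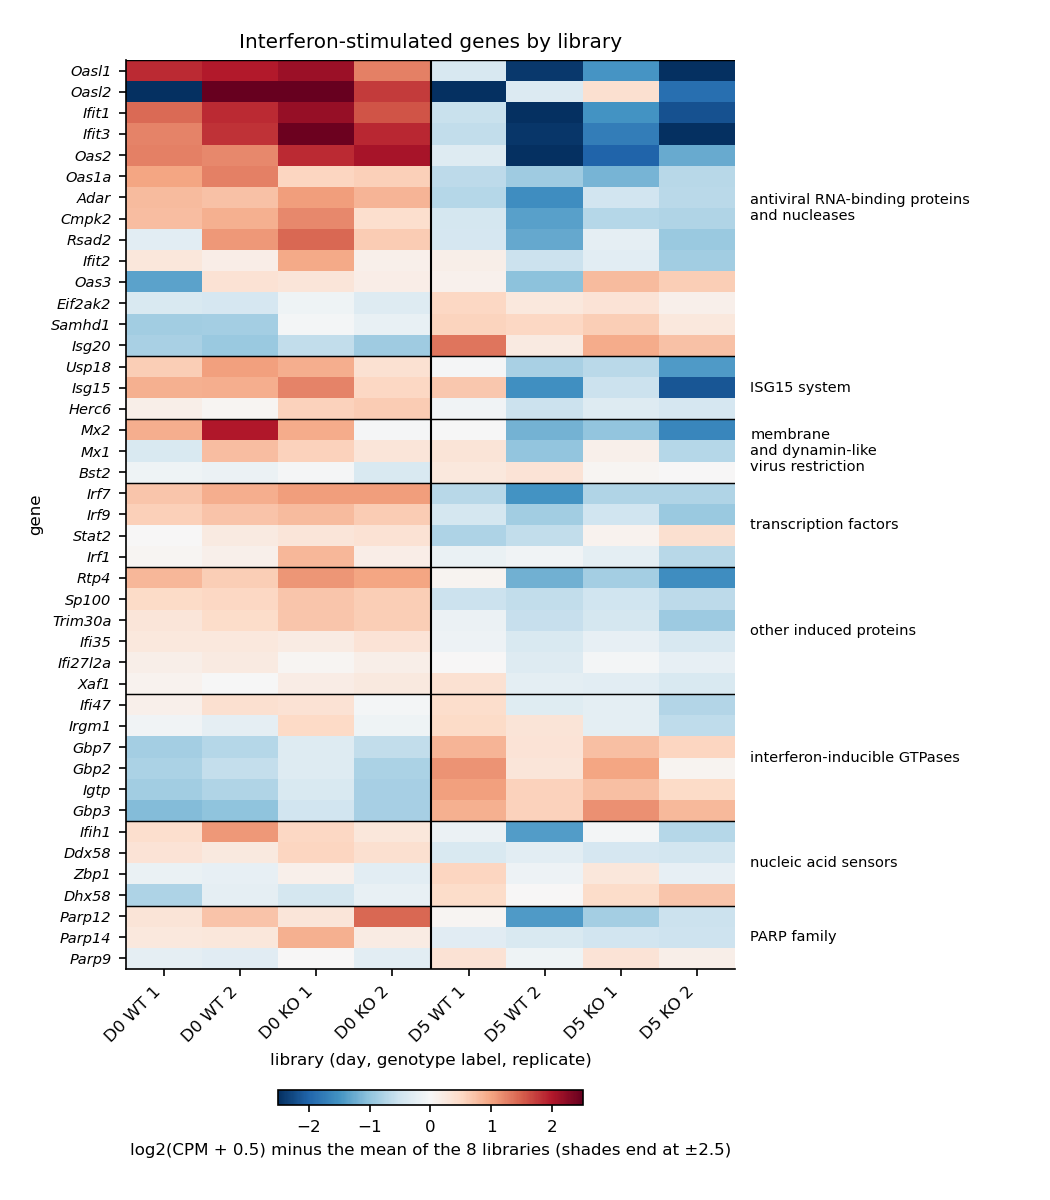
Levels of the 43 tested interferon-stimulated genes (rows, grouped by role) in the 8 libraries (columns; D0 and D5 are day 0 and day 5), as log2(CPM + 0.5) minus the mean of the gene over the 8 libraries. Most antiviral genes are red at day 0 and blue at day 5, the GTPases *Gbp2*, *Gbp3*, *Gbp7* and *Igtp* show the reverse, and replicate 2 of WT at day 5 is bluer than replicate 1 for most rows.

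In 3 of the 4 groups most of these genes were higher in replicate 1 than in replicate 2. In WT at day 5, 38 of the 43 genes were higher in replicate 1 than in replicate 2, with a median log2 difference of 0.63, whereas the median over all tested genes was 0.02. The same difference was 0.28 in KO at day 0 (34 of 43 higher in replicate 1), 0.27 in KO at day 5 (38 of 43) and -0.12 in WT at day 0 (13 of 43). *Isg15* was one of the genes with this split, with 43.97 and 9.13 (WT) and 18.7 and 5.85 CPM (KO) at day 5. Values without single libraries are therefore given beside many of the results below.

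**Figure D2:**
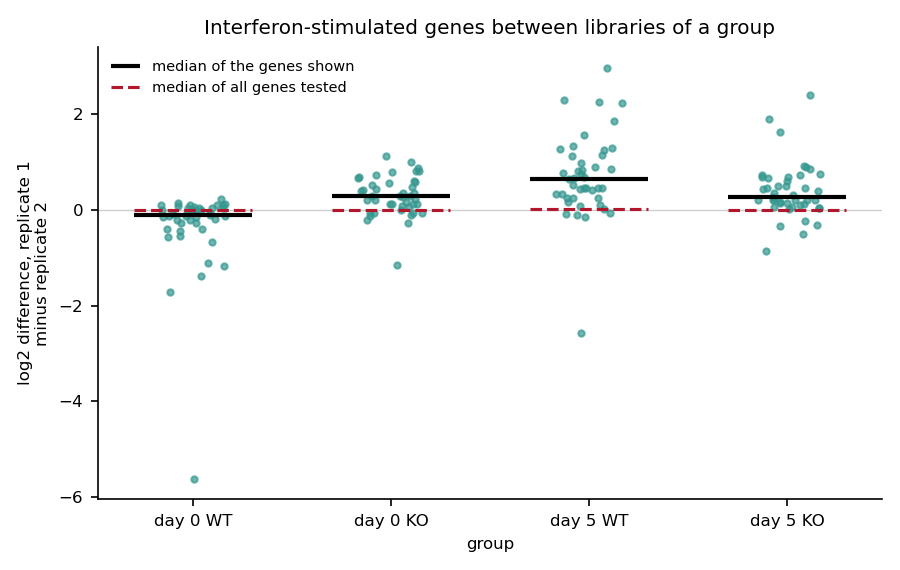
Log2 difference between replicate 1 and replicate 2 for the 43 tested genes (points) in each of the 4 groups, with the median of the points (black line) and of all tested genes (red dashed line). The black line lies at 0.63 in WT at day 5 and near 0.28 in both KO groups, while the red lines lie near 0; the lowest point in WT at day 0 is *Oasl2*.

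The comparison of day 5 with day 0 asks how these genes change when the cells are stimulated and cultured. In WT, 20 of the 43 genes fell and 10 rose, where 23.6% of all tested genes fell and 24.7% rose. In KO, 27 fell and 8 rose, where 24.0% of all tested genes fell and 26.2% rose. The median log2 fold change was -0.61 in WT and -0.99 in KO, against -0.04 and -0.05 over all tested genes. Between the labels, 18 genes fell in both and 8 rose in both, where 17.3% of all tested genes fell in both and 20.5% rose in both. The same shares of all tested genes apply to the counts by role below. Adjusted p-values are from edgeR's quasi-likelihood test, adjusted over all 12597 genes and called under 0.05, and log2 fold changes are given ± SE of the model. Read counts of bulk cells do not tell fewer cells with a transcript from less transcript per cell.

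The size of these counts moved with single libraries and their direction did not. In WT, the number called ranged from 22 without day 0 replicate 2 to 32, and in KO from 24 without day 5 replicate 2 to 37, with more genes lower than higher each time. Summed cell-type markers moved with the day as well, those of CD8 T cells included. The 5 CD8 T-cell markers summed to between 9833 and 10511 CPM at day 0 and between 5841 and 6717 CPM at day 5. The 5 B-cell markers summed to between 121 and 165 CPM at day 0 and between 67.2 and 84.0 CPM at day 5, nearly all of it *Cd79b*, and the 5 monocyte and macrophage markers to between 10.3 and 18.9 CPM and then between 4.05 and 5.85 CPM, with *Cd14* at 0 in 7 of the 8 libraries. The 4 dendritic-cell markers summed to between 11.4 and 16.2 CPM at day 0 and between 5.28 and 7.45 CPM at day 5. Their part in the changes was not tested.

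**Figure D3:**
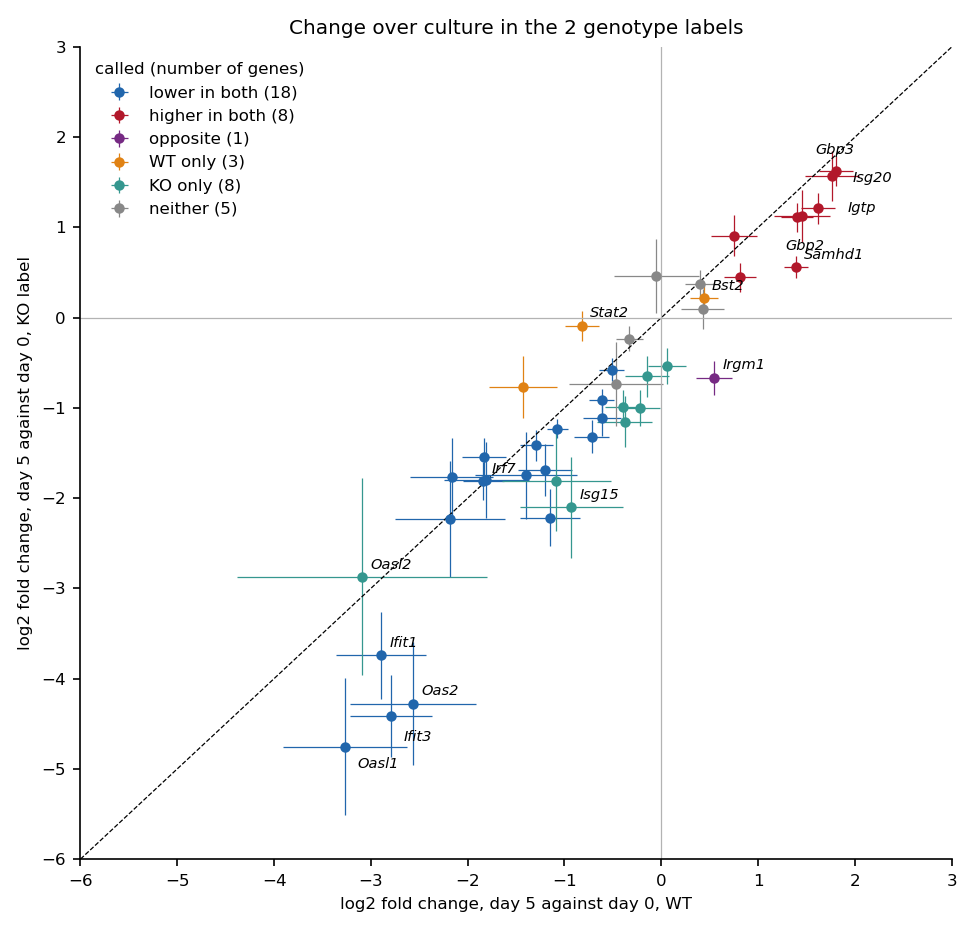
Log2 fold change of day 5 against day 0 in WT (horizontal axis) and in KO (vertical axis) for the 43 tested genes, with bars of 1 SE and colours for the calls in each label. Most points lie below the dashed line of equal change, 18 genes lie in the lower left and fell in both labels, and *Irgm1* lies at 0.54 in WT and -0.67 in KO.

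Of the 6 interferon-inducible GTPases tested, 4 rose in both labels, where 20.5% of all tested genes did. In WT 5 rose and none fell, with a median log2 fold change of 1.43, and in KO 4 rose and 2 fell, with a median of 1.12. Those that rose in both were *Gbp2*, *Gbp3*, *Gbp7* and *Igtp*. *Gbp3*, a guanylate-binding protein, measured 56.1 and 59.2 CPM in the libraries labelled WT and 85.8 and 67.4 CPM in those labelled KO at day 0 and 224 and 179 (WT) and 264 and 212 CPM (KO) at day 5. All 4 day 5 values were above 178 CPM and all 4 day 0 values below 86 CPM, and the log2 fold change was 1.80 ± 0.17, adjusted p = 3.2e-06 in WT and 1.63 ± 0.17, adjusted p = 5.6e-06 in KO.

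*Igtp* measured 998 and 1095 CPM in the libraries labelled WT and 1403 and 1035 CPM in those labelled KO at day 0. The day 5 libraries held 3723 and 2724 CPM in the libraries labelled WT and 3103 and 2564 CPM in those labelled KO. Every day 5 value was above every day 0 value, and the log2 fold change was 1.62 ± 0.17, adjusted p = 8.5e-06 in WT and 1.21 ± 0.17, adjusted p = 8.4e-05 in KO. *Gbp7*, a further guanylate-binding protein, measured 671 and 742 (WT) and 968 and 791 CPM (KO) at day 0 and 2196 and 1539 (WT) and 2043 and 1769 CPM (KO) at day 5, again with no overlap between the days (log2 fold change 1.40 ± 0.16, adjusted p = 1.9e-05 in WT and 1.11 ± 0.16, adjusted p = 0.00012 in KO). *Gbp2* measured 468 and 536 (WT) and 649.6 and 468 CPM (KO) at day 0 and 1764 and 992 (WT) and 1598 and 844 CPM (KO) at day 5. Its day 5 libraries split by replicate number in both labels, with replicate 1 the higher, and its rise in KO (1.12 ± 0.29, adjusted p = 0.006) was lost without day 5 replicate 1 (0.60, adjusted p = 0.10), while that in WT (1.46 ± 0.29, adjusted p = 0.001) was called without any 1 library.

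The other 2 GTPases did not follow. *Irgm1*, a regulator that keeps the effector GTPases off the cell's own membranes, measured 172 and 156 CPM in the libraries labelled WT and 256 and 169 CPM in those labelled KO at day 0. At day 5 it measured 253 and 227 CPM in the libraries labelled WT and 153 and 117 CPM in those labelled KO. It was the gene called in opposite directions, rising in WT (0.54 ± 0.19, adjusted p = 0.03) and falling in KO (-0.67 ± 0.19, adjusted p = 0.01). The WT call was lost without either day 0 library or without day 5 replicate 1 (adjusted p between 0.083 and 0.17), under scaling by library totals (0.078) and with the GC and exon length offset (0.098), and the KO call without day 0 replicate 1 or without day 5 replicate 2 (at -0.32 and -0.47, adjusted p = 0.18 and 0.13). *Ifi47* measured 1046 and 1260.4 (WT) and 1235 and 925 CPM (KO) at day 0 and 1308 and 779.9 (WT) and 808 and 574 CPM (KO) at day 5. It fell in KO (-0.65 ± 0.23, adjusted p = 0.032), where the day 5 values lay below the day 0 values, and was not called in WT (-0.15 ± 0.23, adjusted p = 0.63), and the KO call was lost without day 0 replicate 1 or without day 5 replicate 2 (at -0.42 and -0.41, adjusted p = 0.23 and 0.24), with DESeq2 (0.16) or without either WT library of day 0 (0.052).

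**Figure D4:**
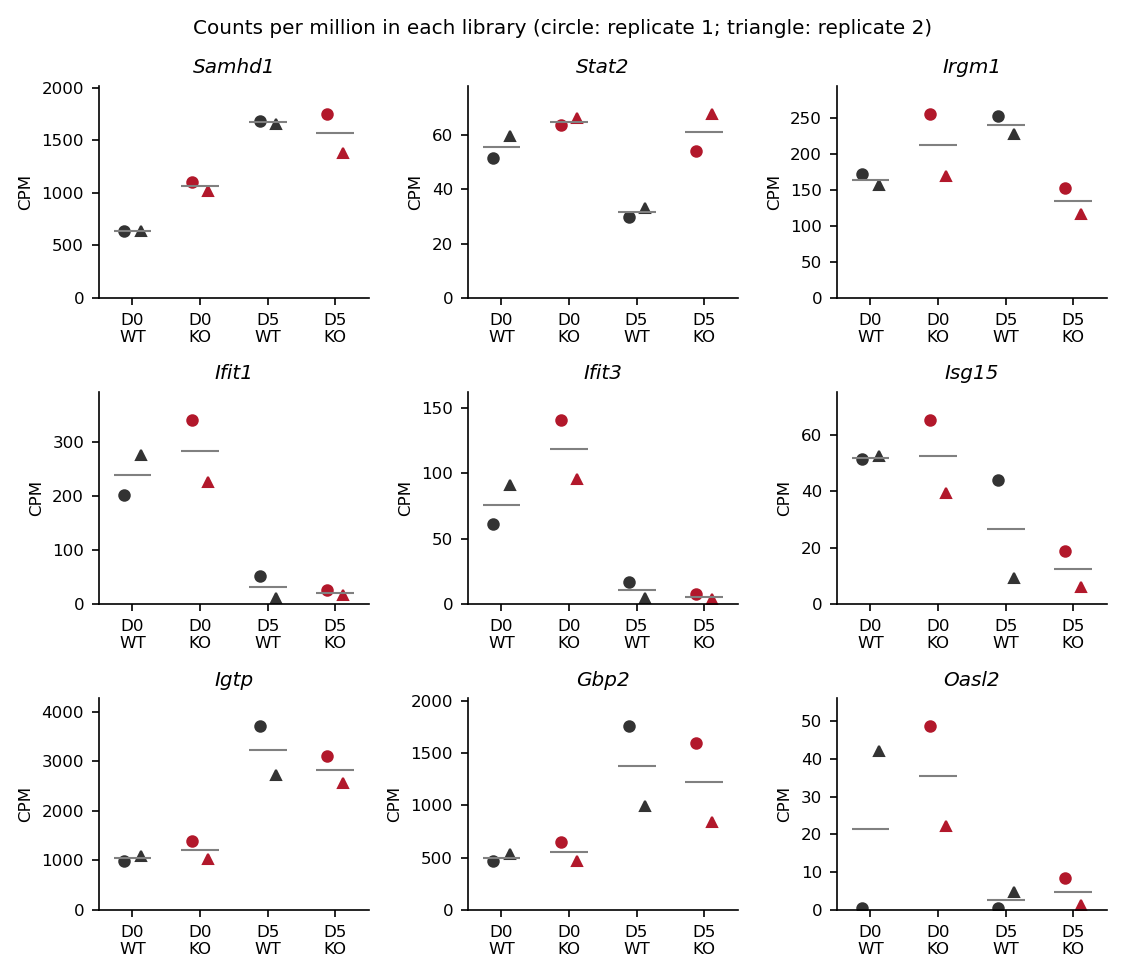
CPM of 9 interferon-stimulated genes in each library (circles, replicate 1; triangles, replicate 2; black, WT; red, KO), with grey lines at the group means and vertical axes from 0. *Igtp* and *Gbp2* are higher at day 5, *Ifit1* and *Ifit3* are lower at day 5 in all 4 libraries, and *Stat2* and *Irgm1* separate the labels at day 5.

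The antiviral RNA-binding proteins and nucleases mostly fell. Of the 14 tested, 8 fell and 3 rose in WT, with a median log2 fold change of -1.82, and 10 fell and 3 rose in KO, with a median of -1.76. *Ifit1* measured 201 and 274 CPM in the libraries labelled WT and 340.5 and 226 CPM in those labelled KO at day 0. After culture the values were 51.2 and 10.6 CPM in the libraries labelled WT and 26.2 and 16.2 CPM in those labelled KO, and the log2 fold change was -2.90 ± 0.46, adjusted p = 0.00024 in WT and -3.74 ± 0.48, adjusted p = 3.9e-05 in KO. The highest of the 4 day 5 values was less than the lowest of the 4 day 0 values. The WT value was -4.46 without day 5 replicate 1 and -2.18 without day 5 replicate 2.

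*Ifit3*, which partners IFIT1 on RNA, measured 61.1 and 90.7 CPM in the libraries labelled WT and 141 and 95.9 CPM in those labelled KO at day 0. The day 5 libraries held 16.5 and 4.33 CPM in the libraries labelled WT and 7.34 and 3.78 CPM in those labelled KO, again without overlap (log2 fold change -2.79 ± 0.42, adjusted p = 0.00015 in WT and -4.41 ± 0.45, adjusted p = 5.5e-06 in KO), and the WT value was -4.10 without day 5 replicate 1 and -2.16 without replicate 2. *Ifit2*, the third of these RNA-binding proteins, did not share the size of that fall. It measured 74.98 and 69.8 (WT) and 119.7 and 67.6 CPM (KO) at day 0 and 68.6 and 42.3 (WT) and 51.4 and 33.6 CPM (KO) at day 5, was not called in WT (-0.38 ± 0.29, adjusted p = 0.30) and fell in KO (-1.15 ± 0.29, adjusted p = 0.005), a call that was lost without day 0 replicate 1 (-0.66, adjusted p = 0.079) or without day 5 replicate 2 (-0.87, 0.063).

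In the oligoadenylate synthetase family, 3 of 5 genes fell in both labels. *Oasl1*, which holds back the translation of IRF7, measured 13.7 and 15.1 (WT) and 16.7 and 8.93 CPM (KO) at day 0 and 2.46 and 0.240 (WT) and 0.918 and 0 CPM (KO) at day 5, with log2 fold changes of -3.26 ± 0.64, adjusted p = 0.001 in WT and -4.75 ± 0.76, adjusted p = 0.00022 in KO. *Oas2* measured 7.84 and 7.43 (WT) and 12.1 and 14.04 CPM (KO) at day 0 and 2.29 and 0 (WT) and 0.367 and 0.944 CPM (KO) at day 5 (-2.56 ± 0.65, adjusted p = 0.006 in WT and -4.28 ± 0.68, adjusted p = 0.00022 in KO). *Oas1a*, another of the synthetases, measured 6.59 and 8.10 (WT) and 4.70 and 4.92 CPM (KO) at day 0 and 1.76 and 1.44 (WT) and 1.10 and 1.70 CPM (KO) at day 5 (-2.17 ± 0.43, adjusted p = 0.001 in WT and -1.77 ± 0.43, adjusted p = 0.005 in KO). In all 3 genes the highest day 5 value was below the lowest day 0 value, and the KO call of *Oas1a* was lost without day 5 replicate 1 (adjusted p = 0.060). The sizes for *Oasl1* and *Oas2* were not stable. Without day 5 replicate 2 of WT they were -2.504 and -1.70 in WT. Without day 5 replicate 1 of WT they were -5.76 and -8.52, the latter against a library with 0 counts, so that it is no measure of size. In KO *Oasl1* was -3.79 without day 5 replicate 2 and -9.30 without replicate 1, again against a library with 0 counts, and *Oas2* was -5.06 without replicate 2.

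The other 2 genes of that family behaved differently. *Oas3*, which makes the longest oligoadenylates, measured 13.00 and 43.4 CPM in the libraries labelled WT and 41.5 and 37.9 CPM in those labelled KO at day 0. At day 5 it measured 36.4 and 16.3 CPM in the libraries labelled WT and 58.2 and 51.7 CPM in those labelled KO, and it was called in neither label (-0.05 ± 0.44, adjusted p = 0.93 in WT and 0.46 ± 0.41, adjusted p = 0.36 in KO). *Oasl2*, an OAS-like protein, had 3 counts in the WT library numbered 1 at each day. It measured 0.534 and 42.1 (WT) and 48.7 and 22.2 CPM (KO) at day 0 and 0.528 and 4.81 (WT) and 8.44 and 1.32 CPM (KO) at day 5, so that its WT value rested on replicate 2 alone: the log2 fold change was -3.09 ± 1.29, adjusted p = 0.066 in WT and became 2.14 without day 0 replicate 2. The KO libraries fell (-2.87 ± 1.09, adjusted p = 0.044), a call lost without day 0 replicate 1 (adjusted p = 0.18), without day 5 replicate 2 (0.21), without WT day 5 replicate 1 (0.053) or with DESeq2 (0.22). Over the KO libraries left out its value ranged from -4.74 without day 5 replicate 1 to -2.08 without day 5 replicate 2.

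*Adar*, the enzyme that edits adenosine in double-stranded RNA, measured 103 and 99.1 (WT) and 124 and 107 CPM (KO) at day 0 and 36.1 and 19.9 (WT) and 42.4 and 36.8 CPM (KO) at day 5. It fell in both labels (-1.83 ± 0.22, adjusted p = 2.6e-05 in WT and -1.55 ± 0.22, adjusted p = 7.3e-05 in KO) without overlap between the days, with the reservation that 16.8% of its exon length lies inside exons of the other strand. The antiviral radical-SAM enzyme *Rsad2* and the nucleotide kinase *Cmpk2* beside it in the genome also fell in both, at between 5.34 and 18.5 CPM for *Rsad2* at day 0 and between 2.40 and 5.51 CPM at day 5. For *Cmpk2*, at between 6.198 and 10.9 CPM at day 0 and between 1.44 and 3.17 CPM at day 5 (-1.81 ± 0.44, adjusted p = 0.005 in WT and -1.80 ± 0.42, adjusted p = 0.003 in KO), the KO call was lost without day 0 replicate 1 (0.052). The fall of *Rsad2* in WT (-1.40 ± 0.53, adjusted p = 0.044) was lost without day 0 replicate 2 (-0.53, adjusted p = 0.50) or either day 5 library (at -1.98 and -0.99, 0.057 and 0.23) and after thinning to the smallest total (0.077), and in KO (-1.75 ± 0.48, adjusted p = 0.0094) without day 0 replicate 1 (-1.24, adjusted p = 0.093) or day 5 replicate 2 (-1.40, 0.085).

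Of the 14 antiviral RNA-binding proteins and nucleases, 3 rose in both labels, where 20.5% of all tested genes did. *Samhd1*, which degrades the nucleotides that DNA synthesis needs, measured 633 and 637 CPM in the libraries labelled WT and 1105 and 1017 CPM in those labelled KO at day 0. After culture the values were 1682 and 1654 CPM in the libraries labelled WT and 1752 and 1379 CPM in those labelled KO, and all 4 day 5 values were above all 4 day 0 values (1.39 ± 0.13, adjusted p = 1.8e-06 in WT and 0.56 ± 0.12, adjusted p = 0.002 in KO). *Isg20*, an RNA exonuclease, measured 49.3 and 45.5 (WT) and 56.6 and 46.5 CPM (KO) at day 0 and 220.2 and 101 (WT) and 165 and 143 CPM (KO) at day 5 (1.76 ± 0.28, adjusted p = 0.00023 in WT and 1.57 ± 0.27, adjusted p = 0.00042 in KO), with a WT value of 1.11 without day 5 replicate 1. *Eif2ak2*, the kinase PKR that stops translation on double-stranded RNA, measured 40.8 and 39.6 (WT) and 49.4 and 42.5 CPM (KO) at day 0 and 76.9 and 64.4 (WT) and 67.7 and 58.3 CPM (KO) at day 5 (0.81 ± 0.17, adjusted p = 0.002 in WT and 0.45 ± 0.16, adjusted p = 0.038 in KO). The KO call of *Eif2ak2* was the least firm of these: it was kept in 9 of 17 alternatives and was lost, among others, without day 5 replicate 1 (adjusted p = 0.24) and when libraries were scaled by their totals (0.17).

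In the ISG15 system, 1 of 3 genes fell in WT and all 3 in KO. *Isg15*, the ubiquitin-like modifier, measured 51.5 and 52.2 CPM in the libraries labelled WT and 65.3 and 39.4 CPM in those labelled KO at day 0. The day 5 libraries held 43.97 and 9.13 CPM in the libraries labelled WT and 18.7 and 5.85 CPM in those labelled KO. The day 5 WT replicates were 43.97 and 9.13 CPM, a spread that took in most of the range of the gene, and the log2 fold change was -0.93 ± 0.53, adjusted p = 0.17 in WT and -2.10 ± 0.56, adjusted p = 0.008 in KO, the latter lost without day 5 replicate 2 (-1.49, adjusted p = 0.072) or with DESeq2 (0.059) and at -3.16 without day 5 replicate 1. The WT value was -0.21 without day 5 replicate 2 and was called lower without day 5 replicate 1 (-2.48, adjusted p = 0.0056), with the replicate block (-1.20, 0.025) and without the filter (-0.96, 0.00027), so the labels are not set apart by these calls. *Usp18*, which removes ISG15 and blocks the type I receptor, measured 121 and 161 (WT) and 148 and 102 CPM (KO) at day 0 and 76.9 and 44.7 (WT) and 48.8 and 29.1 CPM (KO) at day 5 and fell in both (-1.20 ± 0.28, adjusted p = 0.004 in WT and -1.69 ± 0.29, adjusted p = 0.00035 in KO), in WT not without day 0 replicate 2 (0.051). *Herc6*, a ligase for ISG15, measured 34.7 and 32.4 (WT) and 46.8 and 48.9 CPM (KO) at day 0 and 29.6 and 21.4 (WT) and 24.96 and 23.2 CPM (KO) at day 5, with -0.39 ± 0.19, adjusted p = 0.11 in WT (called at -0.63, adjusted p = 0.041, without day 5 replicate 1) and -0.99 ± 0.19, adjusted p = 0.00082 in KO.

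Of the 4 transcription factors, 3 fell in each label. *Irf7*, which amplifies type I interferon, measured 111 and 128 (WT) and 142 and 141 CPM (KO) at day 0 and 42.2 and 23.8 (WT) and 40.6 and 40.2 CPM (KO) at day 5, with no overlap (-1.84 ± 0.21, adjusted p = 1.7e-05 in WT and -1.81 ± 0.21, adjusted p = 1.4e-05 in KO). *Irf9*, the DNA-binding partner of STAT2 in the type I route, lay between 384 and 442 CPM at day 0 and between 133 and 187 CPM at day 5 (-1.29 ± 0.17, adjusted p = 5.1e-05 in WT and -1.41 ± 0.17, adjusted p = 2.2e-05 in KO). *Stat2* was called in 1 label only: it measured 51.5 and 59.7 (WT) and 63.5 and 65.99 CPM (KO) at day 0 and 29.9 and 33.2 (WT) and 54.1 and 67.8 CPM (KO) at day 5, falling in WT (-0.82 ± 0.18, adjusted p = 0.002) and not called in KO (-0.09 ± 0.17, adjusted p = 0.67). *Irf1*, a factor induced by interferon gamma, measured 144 and 153 (WT) and 248 and 157 CPM (KO) at day 0 and 125 and 131 (WT) and 118 and 86.3 CPM (KO) at day 5, falling in KO (-0.998 ± 0.20, adjusted p = 0.001, and -0.62 without day 0 replicate 1) and not called in WT (-0.22 ± 0.20, adjusted p = 0.40). Whether *Stat2* and *Irf1* differ between the labels in their change is given with the interaction below.

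The 4 nucleic acid sensors did not share a direction. *Ddx58*, the RNA sensor RIG-I, fell from between 141 and 172 CPM at day 0 to between 86.6 and 98.8 CPM at day 5 (-0.62 ± 0.13, adjusted p = 0.002 in WT and -0.91 ± 0.13, adjusted p = 7.6e-05 in KO). *Ifih1*, the RNA sensor MDA5, measured 43.5 and 69.6 (WT) and 46.4 and 39.6 CPM (KO) at day 0. At day 5 it measured 29.02 and 12.02 (WT) and 31.2 and 19.4 CPM (KO). It fell in WT (-1.43 ± 0.35, adjusted p = 0.005), a call lost without day 0 replicate 2 (-1.05), and was at -2.20 without day 5 replicate 1. In KO it was not called (-0.77 ± 0.34, adjusted p = 0.077). It was called there in 5 of 17 alternatives, with values over the 17 from -1.14 to -0.46. *Dhx58*, the regulator LGP2 of both sensors, measured 15.7 and 22.96 (WT) and 19.8 and 23.9 CPM (KO) at day 0 and 37.3 and 27.2 (WT) and 37.6 and 43.98 CPM (KO) at day 5 and rose in both (0.75 ± 0.24, adjusted p = 0.021 in WT and 0.91 ± 0.23, adjusted p = 0.005 in KO). Its WT call was lost without replicate 1 of either day (0.18 and 0.16) and its KO call without day 5 replicate 2 (0.051). *Zbp1*, the sensor of left-handed nucleic acids, was called in neither, at between 71.5 and 124 CPM over the 8 libraries.

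Of the 3 membrane or dynamin-like factors, *Mx2* fell in both labels. It measured 6.77 and 15.1 (WT) and 6.93 and 3.28 CPM (KO) at day 0 and 3.34 and 1.20 (WT) and 1.47 and 0.755 CPM (KO) at day 5 (-2.18 ± 0.57, adjusted p = 0.007 in WT and -2.23 ± 0.64, adjusted p = 0.011 in KO), and each call was lost when either of 2 libraries was left out, in WT day 0 or day 5 replicate 2 (adjusted p = 0.098 and 0.062) and in KO day 0 replicate 1 or day 5 replicate 2 (0.13 and 0.089). Its WT value ranged from -3.12 without day 5 replicate 1 to -1.50 without day 0 replicate 2, and its KO value was -1.53 without day 0 replicate 1. The annotation lists *Mx2* as a polymorphic pseudogene, and C57BL/6 mice carry a disrupted *Mx1*. *Mx1* was called in neither, at between 3.85 and 14.2 CPM. *Bst2*, the membrane protein tetherin that holds virus particles at the cell surface, measured 111 and 108 (WT) and 118 and 92.4 CPM (KO) at day 0 and 143 and 153 (WT) and 125 and 120.4 CPM (KO) at day 5, rising in WT (0.44 ± 0.14, adjusted p = 0.023) and not called in KO (0.21 ± 0.14, adjusted p = 0.22). Its WT call was lost without either day 0 library (0.083 and 0.11) or without day 5 replicate 2 (0.062), under scaling by library totals (0.094), without the filter (0.078) and with the GC and exon length offset (0.18).

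The PARP family, enzymes of ADP-ribosylation, held 1 gene that fell in both labels, 1 that fell in KO only by the calls and 1 that was called in neither. *Parp14* measured 84.9 and 85.3 (WT) and 131 and 81.5 CPM (KO) at day 0 and 57.7 and 53.8 (WT) and 50.1 and 49.1 CPM (KO) at day 5 (-0.61 ± 0.20, adjusted p = 0.023 in WT and -1.11 ± 0.20, adjusted p = 0.00048 in KO), and its WT call was lost without any 1 of the 4 WT libraries (adjusted p between 0.076 and 0.12). *Parp12* measured 5.16 and 6.98 (WT) and 5.13 and 11.8 CPM (KO) at day 0. At day 5 it measured 4.22 and 1.20 (WT) and 2.02 and 2.64 CPM (KO). The log2 fold change was -1.08 ± 0.56, adjusted p = 0.13 in WT and -1.81 ± 0.55, adjusted p = 0.015 in KO. Its KO call was lost without day 0 replicate 2 (-1.14) or day 5 replicate 1 (-1.62). In WT it was called lower in 2 of 17 alternatives, with values over the 17 from -2.29 to -0.48. *Parp9* lay between 161 and 251 CPM in the 8 libraries, and 9.4% of its exon length lies inside exons of the other strand.

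Of the other induced proteins, 4 of the 6 tested fell in WT and 5 in KO. *Rtp4*, a chaperone of membrane receptors, measured 277 and 238 (WT) and 334 and 307 CPM (KO) at day 0 and 164 and 67.3 (WT) and 85.5 and 52.9 CPM (KO) at day 5 (-1.15 ± 0.31, adjusted p = 0.008 in WT and -2.21 ± 0.32, adjusted p = 0.0001 in KO), the WT call lost without day 0 replicate 1 (adjusted p = 0.068) or with DESeq2 (0.055). *Sp100*, a nuclear body protein, fell from between 1865 and 2179 CPM at day 0 to between 855 and 945 CPM at day 5 (-1.07 ± 0.11, adjusted p = 4.3e-06 in WT and -1.23 ± 0.11, adjusted p = 1.1e-06 in KO). *Trim30a* and *Ifi35* fell in both as well, with 16.8% of the exon length of *Ifi35* inside exons of the other strand. The WT call of *Trim30a* was lost without day 0 or day 5 replicate 2 (adjusted p = 0.057 and 0.067), and that of *Ifi35* without day 5 replicate 2, in WT (0.051) and in KO (0.054). *Ifi27l2a* was called in neither label. *Xaf1*, a promoter of cell death, measured 53.96 and 50.4 (WT) and 57.2 and 59.8 CPM (KO) at day 0 and 66.1 and 42.5 (WT) and 42.03 and 38.7 CPM (KO) at day 5, called in KO (-0.54 ± 0.20, adjusted p = 0.037) and not in WT (0.06 ± 0.20, adjusted p = 0.82). The KO call was kept in 9 of 17 alternatives and was lost without any 1 of the 4 KO libraries (adjusted p between 0.083 and 0.19).

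The promoters of the genes that fell and of those that rose were set side by side, since ISRE and GAS are the elements bound in the type I and the gamma route. Windows of 250 bases before to 50 bases after the start were taken from RefSeq (GRCm38.p6) and matched 34 of the 44 genes. The ISRE core was searched as TTTC, any 2 bases and TTTC, and the GAS as TTCNNNGAA, on both strands, allowing overlapping matches. The core occurred in 17 of the 34 (50.0%), against 3.99% of the 27025 genes with a window, and the GAS letters in 11 (32.4%), against 9.55%. Among genes that fell in both labels, 6 of 13 held the core and 3 held GAS letters, and among those that rose in both, 5 of 7 held the core and 5 held GAS letters. These are counts of letters over few genes and were not tested.

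The stretches around the core are shown for 4 genes that fell in both labels, 4 that rose in both, and *Irgm1* and *Stat2*, which were called between genotypes at day 5. Each is 60 bases, read 5′ to 3′ on the strand of the gene, with the core in capitals (read as GAAA, 2 bases and GAAA where it lies on the other strand).
The 4 genes that fell were *Ifit1* (chr19:34640769-34640828, strand +), *Ifit3* (chr19:34583365-34583424, strand +), *Oas1a* (chr5:120907526-120907585, strand -) and *Rsad2* (chr12:26456538-26456597, strand -).
Ifit1: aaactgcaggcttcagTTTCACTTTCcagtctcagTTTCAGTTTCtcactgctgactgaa
Ifit3: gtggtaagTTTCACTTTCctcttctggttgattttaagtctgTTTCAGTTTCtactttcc
Oas1a: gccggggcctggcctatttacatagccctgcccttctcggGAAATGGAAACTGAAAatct
Rsad2: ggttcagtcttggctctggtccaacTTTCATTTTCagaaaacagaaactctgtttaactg
The 4 genes that rose were *Gbp2* (chr3:142620579-142620638, strand +), *Gbp3* (chr3:142559977-142560036, strand +), *Gbp7* (chr3:142530258-142530317, strand +) and *Igtp* (chr11:58199496-58199555, strand +).
Gbp2: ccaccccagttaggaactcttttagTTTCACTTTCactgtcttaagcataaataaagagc
Gbp3: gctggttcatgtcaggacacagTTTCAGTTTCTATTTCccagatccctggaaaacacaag
Gbp7: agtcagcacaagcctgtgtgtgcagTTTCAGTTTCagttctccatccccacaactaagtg
Igtp: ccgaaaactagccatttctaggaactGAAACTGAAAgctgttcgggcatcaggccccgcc
The genes called between genotypes were *Irgm1* (chr11:48871421-48871480, strand -) and *Stat2* (chr10:128270251-128270310, strand +).
Irgm1: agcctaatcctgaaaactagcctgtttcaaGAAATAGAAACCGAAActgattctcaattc
Stat2: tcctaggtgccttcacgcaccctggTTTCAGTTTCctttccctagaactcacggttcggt
*Ifit1* and *Ifit3* each hold the core at 2 separate places in 60 bases, *Oas1a* and *Gbp3* hold 2 overlapping matches, and *Gbp2*, *Gbp7* and *Igtp* hold 1. The window of *Samhd1* held no core and had GAS letters 235 bases before the start.

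The comparison of KO with WT at day 0 asks whether the genotype labels differ in these genes before culture. *Samhd1* (chromosome 2, 157097533 to 157135265, GRCm38) was the 1 gene called among the 43, where 1.80% of all tested genes were called in either direction. The 2 KO libraries, at 1105 and 1017 CPM, lay above the 2 WT libraries, at 633 and 637 CPM, and the log2 fold change was 0.74 ± 0.12, adjusted p = 0.009. It was kept in 14 of 17 alternatives and lost without WT replicate 1 (adjusted p = 0.15), WT replicate 2 (0.14) or KO replicate 1 (0.054). *Satb1* was not lower in these KO libraries, so the direction holds only for libraries labelled KO.

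The remaining values at day 0 were small and mostly on 1 side. The median log2 fold change of the 43 was 0.20 and 35 were above 0, against a median near 0 and 49.7% above 0 over all tested genes. Without KO replicate 1, the deepest library, the median was 0.07 and 24 of 43 were above 0. By smallest unadjusted p after *Samhd1* came *Herc6* (0.51 ± 0.18), *Gbp3* (0.42 ± 0.17) and *Irf1* (0.46 ± 0.20). Then followed *Mx2* (-1.02 ± 0.49), *Irgm1* (0.38 ± 0.19), *Gbp7* (0.32 ± 0.16), *Ifit3* (0.65 ± 0.35), *Parp14* (0.33 ± 0.19) and *Oas1a* (-0.61 ± 0.36), with adjusted p-values of these 9 between 0.23 and 0.51. Both KO values of *Herc6* (46.8 and 48.9 CPM) were above both WT values (34.7 and 32.4 CPM). The same held for *Gbp3*, *Irf1*, *Gbp7* and *Ifit3*. For *Oas1a* both KO values (4.70 and 4.92 CPM) were below both WT values (6.59 and 8.10 CPM), and those of *Mx2* and *Parp14* overlapped. How many of all tested genes had such a separation was not counted. The log2 fold changes of single genes moved with the KO libraries as well. Without KO replicate 1 they were 0.23 for *Gbp3*, 0.081 for *Irf1* and 0.041 for *Irgm1*. Without KO replicate 2 they were 0.60, 0.77 and 0.67. *Herc6* ranged from 0.29 to 0.56 over the 17 alternatives. Over the libraries left out *Mx2* ranged from -1.71 to -0.36, *Gbp7* from 0.16 to 0.49, *Ifit3* from 0.34 to 0.96 and *Parp14* from -0.065 to 0.65, each at one end without KO replicate 1. For *Irgm1* the KO values, 256 and 169 CPM, overlapped the WT values, 172 and 156 CPM.

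**Figure D5:**
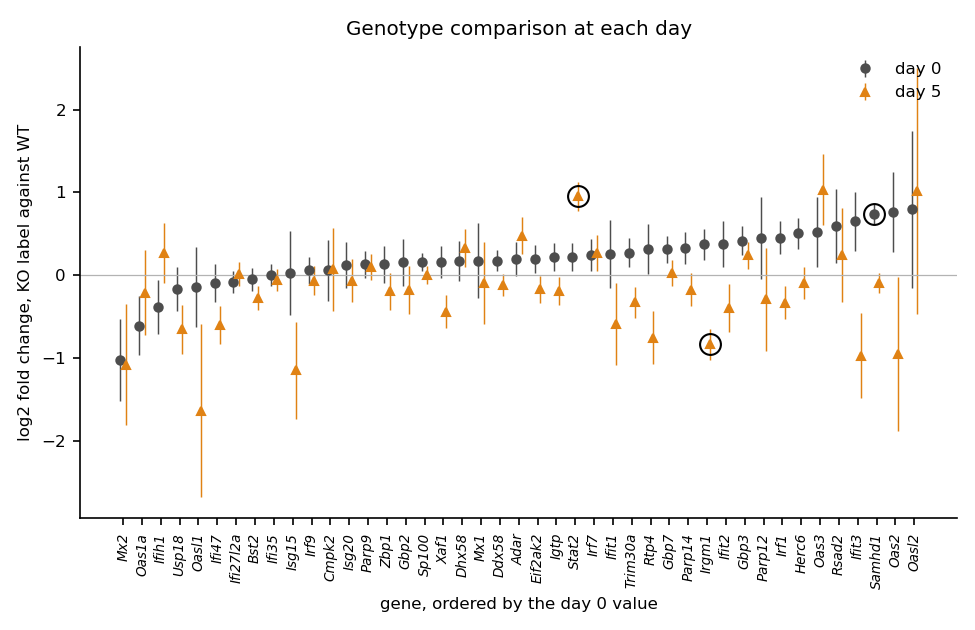
Log2 fold change of KO against WT at day 0 (grey circles) and day 5 (orange triangles) for the 43 tested genes, ordered by the day 0 value, with bars of 1 SE and open rings around called values. *Samhd1* is ringed at day 0 and *Stat2* and *Irgm1* at day 5; 35 circles and 14 triangles lie above 0.

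After culture, 2 of the 43 genes were called between the labels, where 1.63% of all tested genes were called. *Stat2* (chromosome 10, 128270559 to 128292849) was higher in KO, at 29.9 and 33.2 (WT) and 54.1 and 67.8 CPM (KO), a log2 fold change of 0.95 ± 0.17, adjusted p = 0.017. *Irgm1* (chromosome 11, 48861968 to 48871683) was lower in KO, at 253 and 227 (WT) and 153 and 117 CPM (KO), a log2 fold change of -0.83 ± 0.19, adjusted p = 0.049. In both genes the 2 labels did not overlap. The call of *Stat2* was kept in 12 of 17 alternatives. It was lost without any 1 of the 4 day 5 libraries (log2 fold changes from 0.78 to 1.11) or with the GC and exon length offset (adjusted p = 0.053). The call of *Irgm1* was kept in 10 of 17. It was lost without any 1 of the 4 day 5 libraries (from -1.04 to -0.65), without either WT library of day 0 and with the offset (adjusted p = 0.066).

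The direction of the set as a whole at day 5 changed or was lost when single libraries were left out. The median log2 fold change of the 43 was -0.17 and 14 were above 0, against 49.9% of all tested genes. Without WT replicate 1, when *Ifi44* also passed the filter, the median was 0.19 and 31 of 44 were above 0. Without WT replicate 2 it was -0.29 with 7 of 44 above 0, and without KO replicate 2 it was near 0 with 22 of 44 above 0.

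Several single genes at day 5 carried the same split. *Ifi47* (-0.60 ± 0.23), *Oas3* (1.04 ± 0.43), *Rtp4* (-0.75 ± 0.32) and *Usp18* (-0.65 ± 0.29) had the next smallest unadjusted p-values, followed by *Xaf1* (-0.44 ± 0.20), *Adar* (0.48 ± 0.23), *Isg15* (-1.15 ± 0.58) and *Bst2* (-0.27 ± 0.14), with adjusted p-values of these 8 between 0.25 and 0.42. For *Oas3* both KO values (58.2 and 51.7 CPM) were above both WT values (36.4 and 16.3 CPM), and for *Bst2* both KO values (125 and 120.4 CPM) were below both WT values (143 and 153 CPM). Those of *Xaf1* and *Adar* were apart by less than 1 CPM, and the WT and KO values of *Ifi47*, *Rtp4*, *Usp18* and *Isg15* overlapped. Without WT replicate 1 the values of *Usp18*, *Xaf1* and *Ifi47* were -0.19, -0.067 and -0.17, those of *Isg15* and *Rtp4* were 0.44 and 0.05, and *Oas3* stood at 1.76, while *Adar* was called higher in KO at 0.998 (adjusted p = 0.047). Without WT replicate 2 the values of *Oas3*, *Adar*, *Xaf1* and *Ifi47* were 0.59, 0.14, -0.71 and -0.92, and *Rtp4* was called lower in KO at -1.24 (adjusted p = 0.038).

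The interaction is the log2 fold change over culture in KO less that in WT, and tests whether the change over culture differs between the labels. None of the 43 genes was called by edgeR's quasi-likelihood test, where 0.159% of all tested genes were called, and 8 had an unadjusted p under 0.05, where 12.4% of all tested genes did. DESeq2 called 2, *Irgm1* and *Samhd1*, and a fit with the replicate number as a block called *Irgm1*. The smallest p-values were those of *Samhd1* (-0.83 ± 0.17, adjusted p = 0.09), *Irgm1* (-1.21 ± 0.27, adjusted p = 0.11), *Stat2* (0.73 ± 0.24, adjusted p = 0.25) and *Irf1* (-0.78 ± 0.28, adjusted p = 0.30). The KO and WT values of *Samhd1* were apart at day 0 and overlapped at day 5, and those of *Irgm1* overlapped at day 0 and were apart at day 5, but these differences between days did not pass the quasi-likelihood test without the block. The value was above 0 for 10 of the 43 genes, with a median of -0.33, against 51.2% above 0 and a median of 0.02 over all tested genes, and without WT replicate 1 at day 5 the median was 0.09.

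The signal that switches these genes on was looked at in 80 other genes of the pathway, of which 68 were tested. Among the ligands, *Ifna1*, *Ifna2*, *Ifna4*, *Ifnb1*, *Ifnl2* and *Ifnl3* had at most 0.367 CPM in any library, under the level of 3 counts. *Ifng*, interferon gamma itself, measured 0.356 and 0.225 (WT) and 0 and 0 CPM (KO) at day 0, which is under 3 counts in each library. At day 5 it measured 16.01 and 7.93 (WT) and 3.12 and 2.08 CPM (KO), higher than at day 0 in both labels (adjusted p = 5.5e-05 in WT and 0.0003 in KO) and lower in KO than in WT (-2.21 ± 0.47, adjusted p = 0.043). That last call was kept in 9 of 17 alternatives.

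Of the 5 receptor genes tested, *Ifngr1*, the ligand-binding chain for interferon gamma, was called. It measured 474 and 559 CPM in the libraries labelled WT and 1348 and 1119.6 CPM in those labelled KO at day 0. After culture the values were 1805 and 1715 CPM in the libraries labelled WT and 2314 and 2017 CPM in those labelled KO. It was higher in KO at day 0 (1.26 ± 0.13, adjusted p = 0.00028), a call kept in all 17 alternatives, and rose over culture in WT (1.77 ± 0.13, adjusted p = 3.3e-07) and in KO (0.81 ± 0.13, adjusted p = 0.00022). *Ifnar1*, *Ifnar2*, *Ifngr2* and *Il10rb* were not called in any of the 4 comparisons.

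Among the kinases, *Jak1*, which serves both receptors, fell in WT (-1.32 ± 0.12, adjusted p = 2e-06) and in KO (-1.50 ± 0.12, adjusted p = 5.5e-07), from between 697 and 819 CPM to between 260 and 306 CPM. *Jak2* (-0.55) and *Tyk2* (-0.94) fell in WT only by the calls, with -0.16 and -0.36 in KO. Of the 7 negative regulators tested, 2 rose and 3 fell in WT and 2 rose and 1 fell in KO, with medians of -0.30 and -0.17. Over all tested genes 24.7% rose and 23.6% fell in WT and 26.2% and 24.0% in KO. *Ptpn2*, a phosphatase of JAK and STAT proteins, and *Trim28* rose in both labels (*Ptpn2*: 1.29 ± 0.16 in WT and 0.99 ± 0.16 in KO). *Irf2bp2* (-0.73), *Ptpn6* (-0.39) and *Pias1* (-0.30) fell in WT and *Irf2* (-0.48) in KO, while *Socs1* was too low to test, at or under 3.12 CPM.

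Of the 11 genes that act upstream of interferon, *Ikbke*, a kinase of IRF3 and IRF7, fell from between 167 and 211 CPM to between 20.9 and 40.6 CPM (-3.05 ± 0.19, adjusted p = 5.4e-08 in WT and -2.47 ± 0.18, adjusted p = 2e-07 in KO). *Irf3* and *Myd88* fell in both labels as well. *Irf8*, a transcription factor of myeloid cells that effector CD8 T cells also use, rose from between 0.712 and 2.93 CPM to between 24.3 and 40.5 CPM (4.41 ± 0.42, adjusted p = 3e-06 in WT and 3.36 ± 0.37, adjusted p = 1.1e-05 in KO). Of the 40 further interferon-induced genes tested, 21 fell and 6 rose in WT, and 19 fell and 4 rose in KO. The median log2 fold changes were -0.55 and -0.44. Over all tested genes 23.6% fell and 24.7% rose in WT, and 24.0% fell and 26.2% rose in KO. This list too was chosen with earlier results of these data known, so it is no independent check of the 43 genes.

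Within that list the largest changes in WT were the falls of *Phf11d*, *Slfn5* (-3.39) and *Ifit3b* (-2.33) and the rises of *Ube2l6* (4.19), the enzyme that loads ISG15 for conjugation, and *Iigp1* (3.15), an effector GTPase. *Phf11d* had 3 or fewer counts in every day 5 library. *Slfn5*, *Ifit3b* and *Trim21* also had few reads there, with between 1 and 9, 3 and 18, and 1 and 10 counts. The sizes of their falls are uncertain to that extent. In KO, *Slfn5*, *Ifit3b*, *Trim21* and *Ifit1bl1* had the largest falls (-4.66, -4.00, -2.78 and -2.75), and *Ube2l6* and *Iigp1* again rose (2.70 and 1.83). Between the labels, *Ube2l6* was higher in KO at day 0, at 2.85 and 4.50 (WT) and 14.2 and 12.9 CPM (KO) (1.91 ± 0.30, adjusted p = 0.006), kept in 16 of 17 alternatives. *Pml*, the scaffold of nuclear bodies, was higher in KO at day 5, at 36.9 and 28.6 (WT) and 54.3 and 57.6 CPM (KO) (0.76 ± 0.17, adjusted p = 0.043), kept in 10 of 17.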

How the data were processed

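Per the labels, libraries were made from sorted cells with an NEBNext Ultra RNA kit and read on a HiSeq2500. The authors deposited 1 file per library of raw read counts by gene symbol, not normalized and not pooled, with 5 summary lines that were left out. The submitters' processing notes name HISAT2 2.1.0, HTSeq 0.11.1 and mm10 (GRCm38); the annotation and strand setting are not given in the sources used here. Reads with several alignments (31.8% to 37.4% of records) were not counted for a gene, so the *Gbp*, *Irgm*, *Oas* and *Ifit* families rest on unique reads and are uncertain to that extent. Without a known strand setting, reads of overlapping genes cannot be told apart. Between 21.2% and 24.5% of records were counted for a gene.

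CPM used library sizes scaled by TMM. All 8 libraries entered 1 fit with a mean per group in edgeR 4.0.16 (R 4.3.3): default filter (minimum count 10), quasi-likelihood test, two-sided, Benjamini-Hochberg over 12597 genes, called under 0.05. The common coefficient of variation was 15.0%. The floor of 3 counts covers counting error only. The procedure was tested on simulated data.

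The alternatives were DESeq2 size factors, library totals, no filter, a filter of 5 CPM in 2 libraries, a fit to the libraries of 1 comparison, a replicate block, DESeq2 1.42.0, thinning, a GC and exon length offset, and each library left out. Exon lengths and positions came from GENCODE M21. Members and lists were chosen with earlier results of these data known. Values per library are given for genes called between labels, the 10 with the smallest p in each genotype comparison, the 8 largest changes each way in WT culture, and genes called in 1 label only or in opposite directions; *Rsad2*, *Irf9*, *Ddx58* and *Sp100* were added after their values were seen.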

Additional observations from a re-analysis of the deposited data

How the results depend on the processing

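The culture counts kept their direction and stayed within 1.5 times under all 17 alternatives; 7 of 10 rising and 12 of 20 falling calls in WT, and 5 of 8 and 15 of 27 in KO, held in every one. Scaling by library totals moved the all-gene median of log2 fold changes from -0.04 to -0.17 in WT and from -0.05 to -0.23 in KO, and the split to 8 higher and 22 lower in WT and 7 and 29 in KO. The counts between labels were small and unstable. At day 0, 1 gene was called, against 2 without the filter and 0 to 1 with a library left out. At day 5, 2 were called, against 6 without the filter, 0 with the GC and length offset, and 0 to 2 with a library left out. In the interaction, 0 were called, against 4 without the filter, 1 with the replicate block, 2 with DESeq2, and 0 to 1 with a library left out; the cause was not tested.

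Single values that changed sign were all uncalled with every library in the fit. Leaving out libraries gave *Parp14* at day 0 values from -0.065 to 0.65, and at day 5 *Rtp4* from -1.24 to 0.050 and *Isg15* from -2.21 to 0.44. In WT culture it gave *Ifi47* from -0.54 to 0.21, *Oasl2* from -5.20 to 2.14 and *Xaf1* from -0.28 to 0.37, and in KO culture *Stat2* from -0.25 to 0.076. *Xaf1* in WT culture was -0.084 with library totals and -0.12 with the offset, and *Bst2* in KO culture was -0.21 with the offset.

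The labels do not say that a replicate number marks a shared mouse, and each comparison holds 2 pairs. The correlation of replicate differences was 0.12 between the WT groups, 0.23 between the KO groups and between -0.07 and 0.004 otherwise. With the replicate block, 1, 2, 32 and 36 genes were called in the 4 comparisons of groups and 1, *Irgm1*, in the interaction. The lowest total, 4170126 counts, leaves genes of a few CPM, such as *Oas2*, *Oasl1* and *Mx2*, with few reads at day 5.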

Other observations

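The rise of GTPases over culture did not extend to all relatives in the list of other interferon-induced genes. *Iigp1* rose most, with log2 fold changes of 3.15 ± 0.49 in WT and 1.83 ± 0.46 in KO, and *Gbp5* rose in both labels (0.71 and 1.11). *Gbp4*, *Gbp6* and *Gbp8* rose in WT (0.82, 1.28 and 0.34) and were not called in KO (0.31, 0.54 and 0.03). *Gbp9* fell in both labels (-1.12 in WT and -1.43 in KO), as did the T-cell GTPases *Tgtp1* (-0.58 and -1.10) and *Tgtp2* (-1.23 and -1.62), which are near-identical copies counted from unique reads. *Irgm2* was called in neither label (0.56 and -0.27).

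The conjugation route of ISG15 also held genes with different directions. *Uba7*, its activating enzyme, fell (-1.50 in WT and -1.19 in KO), while *Ube2l6*, its conjugating enzyme, went from between 2.85 and 14.2 CPM at day 0 to between 51.9 and 92.1 CPM at day 5. *Shisa5*, an interferon-induced membrane protein, was among the most abundant genes of the list and fell from between 4381 and 4618 CPM to between 1028 and 1368 CPM.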
